A study of Homo sapiens with 24 samples.

Results

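The 48 genes described here encode the proteins that copy DNA in S phase and supply the nucleotides for it. They were taken by gene symbol from a list that covers origin licensing, polymerases, clamp and loader, nucleotide supply and replication-coupled chromatin, and each symbol matched 1 of the 60675 genes counted in each of 24 RNA-seq libraries. When KDM5C and YY1 were depleted together, 33 of the 48 genes were lower than in control cells of the ACHN line, where 32% of all genes tested were lower, and 35 of 48 were lower in the HK2 line, where 24.3% of all genes were. Depletion of KDM5C alone in ACHN cells lowered 4 of them and raised 22 (27.7% and 28.9% of all genes), and depletion of YY1 alone lowered 20 and raised 3 (24.5% and 24.2% of all genes). No gene of the 48 passed a log2 fold change of 1.5 in either direction in any comparison.

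ACHN is a human renal carcinoma line that the labels class as ccRCC, and HK2 is a line of human kidney proximal tubule epithelium immortalised with papillomavirus genes. Each line was studied in 4 groups of 3 libraries: cells with a control hairpin (shNC), with a hairpin against KDM5C (shKDM5C), with a hairpin against YY1 (shYY1), and with both knockdowns (Dsh). All groups, controls included, carried a lentiviral hairpin and were selected with puromycin as stable cells. The Dsh cells were built on YY1-depleted cells by adding a GFP-marked KDM5C hairpin, so they went through an extra infection and selection that shNC cells are not described to have had. The study lists a control hairpin vector with EGFP among its reagents, without saying which cells received it. Which of the hairpins designed for each gene was sequenced, and whether replicates were separate cultures, are not given in the sources used here. The p-values therefore measure the spread between these libraries, which may be technical.

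Origins of replication are licensed in G1, when the origin recognition complex (ORC), CDC6 and CDT1 load the MCM helicase onto DNA. Geminin (GMNN) holds CDT1 in check, and the kinase CDC7 with its activator DBF4 fires the licensed origin with the help of CDC45 and the GINS complex. DNA polymerase alpha and primase lay down primers, the RFC complex loads the sliding clamp PCNA, and polymerases epsilon and delta extend the new strands. Many of these genes are classical targets of the E2F factors, and their transcripts peak around the entry into S phase, so their level in a cell population is widely used as a sign of proliferation. KDM5C is a demethylase of histone H3 lysine 4, and YY1 is a zinc finger transcription factor. Since RNA came from whole cultures, fewer cells in S phase and less RNA per cell cannot be told apart in any of the values given here.

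Library totals ranged from 15926561 to 24272298 counts, and each of the 48 genes had at least 116 counts in every library. Levels are given as CPM, the counts of a gene scaled to library size with edgeR's TMM factors within a cell line. The targeted genes were lower in every group with a hairpin against them, by more in HK2 than in ACHN cells. KDM5C was at 69.9, 69.8 and 68.9 CPM in ACHN shNC, 41.0, 43.4 and 41.8 CPM in shKDM5C and 39.7, 40.7 and 40.1 CPM in Dsh libraries, with log2 fold changes of -0.73 and -0.80 (adjusted p = 1.12e-12 and 3.24e-10, edgeR). Its log2 fold change was -1.74 in HK2 shKDM5C (adjusted p = 0.0184, edgeR) and -1.49 in HK2 Dsh cells (adjusted p = 6.76e-21, edgeR). Without shKDM5C replicate 1 it was -1.51 in HK2 shKDM5C cells (adjusted p = 1.26e-16, edgeR). YY1 had -0.88 in ACHN shYY1, -0.51 in ACHN Dsh, -1.70 in HK2 shYY1 and -1.49 in HK2 Dsh cells (largest adjusted p = 1.14e-07, edgeR), and ACHN Dsh libraries kept 89.6, 103 and 95.2 CPM of YY1 against 133, 137 and 141 CPM in shNC. Differences between the lines in Dsh cells cannot be told apart from this difference in depletion. The library HK2 shKDM5C replicate 1 stood apart from the other HK2 libraries. It had 11.8% of its counts on mitochondrial genes, against 4.75 to 5.52% in the other 11 HK2 libraries, and KDM5C was at 37.4 CPM in it, against 68.4 and 67.4 CPM in its 2 replicates. Counts for the comparisons with HK2 shKDM5C cells and for the HK2 interaction are given with and without it. Of the 8 kidney epithelium markers, LRP2 was at 0 in 11 ACHN and 9 HK2 libraries and did not exceed 0.0595 CPM in any. The others were present in every library, and the sum of the 8 moved with the groups. It was 3009 to 3058 CPM in ACHN shNC, 3473 to 3607 CPM in the ACHN single knockdowns and 2018 to 2245 CPM in ACHN Dsh libraries. In HK2 it was 2898 to 3005 CPM in shNC, 2481 to 3080 CPM in shKDM5C, 2024 to 2159 CPM in shYY1 and 1504 to 1637 CPM in Dsh libraries. The 5 leukocyte and 4 endothelial markers summed to at most 12.1 and 1.75 CPM. The 5 fibroblast markers moved with the groups too, from 576 to 626 CPM in ACHN shNC libraries to between 73.1 and 194 CPM in the ACHN knockdown libraries, and from 30.9 to 63.0 CPM in HK2 libraries of shNC and the single knockdowns to between 94.2 and 103 CPM in HK2 Dsh libraries. In ACHN cells COL1A1 was at 47.0 to 594 CPM and PDGFRB at 7.14 to 34.9 CPM over the 12 libraries. LUM was at 0 in all 12 and DCN at most 0.209 CPM. In HK2 cells LUM was at 8.96 to 65.6 CPM, COL1A1 at 15.6 to 32.9 CPM, DCN at 0 to 7.96 CPM and PDGFRB at 0.214 to 1.48 CPM. The part of either list in the results below was not tested.

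In control cells the sliding clamp and the salvage kinase were the highest per unit of length. PCNA had 107 ± 3.15 CPM per kb of exons in ACHN shNC cells and 195 ± 4.89 in HK2 shNC cells (SD, n = 3), followed by TK1, thymidine kinase of the salvage pathway, with 86.6 ± 1.99 and 156 ± 6.14 CPM per kb. At the other end stood PRIM2, the large primase subunit, with 2.98 ± 0.143 CPM per kb in ACHN, GINS3 with 3.11 ± 0.307 and TIPIN with 3.30 ± 0.355, neighbours that differed by less than the larger of their SDs. In HK2 the lowest was TIPIN with 3.74 ± 0.236 CPM per kb. PRIM2, PCNA, RRM2, DUT, DBF4, FEN1, RPA2 and RPA3 have near-identical copies or pseudogenes elsewhere in the genome, so their counts could be split between copies and are less certain. Together the 48 genes took 0.322 to 0.328% of all counts in ACHN shNC libraries and 0.477 to 0.483% in HK2 shNC libraries. In Dsh libraries their share was 0.246 to 0.25% in ACHN and 0.344 to 0.348% in HK2, below every control library of the same line.

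The promoters of several genes whose results are set out below are printed here, each with 250 bases before and 50 bases from the annotated start. The sequences come from the RefSeq annotation of GRCh38.p14 and read 5′ to 3′ on the strand of the gene. Of the 48 genes, 44 had a promoter in that table. Capitals mark 3 kinds of words, searched on both strands: words of the E2F site (TTTCCCGC, TTTGGCGC, TTTCGCGC or TTTGCCGC), the core of the YY1 site (AANATGGC), and the CCAAT box. No words overlapped in the windows printed. CDC6, whose protein loads the helicase, is at chr17:40287629-40287928 (plus strand). CLSPN (claspin, an adaptor of the replication checkpoint) is at chr1:35769929-35770228 (minus strand). PCNA, the clamp, is at chr20:5126573-5126872 (minus strand). POLE2, the second subunit of polymerase epsilon, is at chr14:49688165-49688464 (minus strand), DBF4 at chr7:87876243-87876542 (plus strand), and TIMELESS, a fork protection factor, at chr12:56449377-56449676 (minus strand).
CDC6: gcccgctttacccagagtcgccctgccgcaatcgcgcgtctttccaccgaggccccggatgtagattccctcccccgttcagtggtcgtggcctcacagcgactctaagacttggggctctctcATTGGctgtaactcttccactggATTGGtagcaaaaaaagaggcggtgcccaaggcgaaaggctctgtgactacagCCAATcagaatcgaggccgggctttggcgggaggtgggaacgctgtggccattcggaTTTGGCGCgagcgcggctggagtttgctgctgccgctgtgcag
CLSPN: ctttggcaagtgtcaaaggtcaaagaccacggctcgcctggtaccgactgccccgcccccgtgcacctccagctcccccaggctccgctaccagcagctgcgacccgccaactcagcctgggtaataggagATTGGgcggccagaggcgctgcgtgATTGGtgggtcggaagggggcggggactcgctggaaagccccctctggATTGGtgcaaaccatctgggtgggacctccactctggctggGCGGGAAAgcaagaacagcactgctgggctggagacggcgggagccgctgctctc
PCNA: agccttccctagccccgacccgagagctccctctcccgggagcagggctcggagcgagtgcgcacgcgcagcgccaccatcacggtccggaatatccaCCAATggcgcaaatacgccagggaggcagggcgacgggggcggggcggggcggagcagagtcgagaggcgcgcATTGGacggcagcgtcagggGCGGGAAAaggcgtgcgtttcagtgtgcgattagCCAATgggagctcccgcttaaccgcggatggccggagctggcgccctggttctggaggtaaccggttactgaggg
POLE2: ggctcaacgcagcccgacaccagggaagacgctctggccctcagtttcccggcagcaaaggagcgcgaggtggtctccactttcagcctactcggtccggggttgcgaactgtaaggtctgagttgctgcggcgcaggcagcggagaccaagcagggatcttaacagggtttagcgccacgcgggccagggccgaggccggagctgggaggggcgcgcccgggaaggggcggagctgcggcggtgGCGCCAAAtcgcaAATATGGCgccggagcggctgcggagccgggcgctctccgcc
DBF4: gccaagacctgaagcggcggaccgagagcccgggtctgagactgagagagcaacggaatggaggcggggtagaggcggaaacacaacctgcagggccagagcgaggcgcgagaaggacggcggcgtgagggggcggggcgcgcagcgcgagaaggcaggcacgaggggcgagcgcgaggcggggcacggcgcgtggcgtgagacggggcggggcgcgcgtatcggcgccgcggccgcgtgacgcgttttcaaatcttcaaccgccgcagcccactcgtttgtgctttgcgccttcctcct
TIMELESS: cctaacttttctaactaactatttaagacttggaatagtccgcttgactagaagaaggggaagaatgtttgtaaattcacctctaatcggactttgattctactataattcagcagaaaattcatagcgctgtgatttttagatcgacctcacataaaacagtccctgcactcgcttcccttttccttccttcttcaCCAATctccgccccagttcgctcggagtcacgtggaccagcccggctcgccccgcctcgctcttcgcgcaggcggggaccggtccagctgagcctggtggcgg
An E2F word lay 7 bases after the first base of CDC6, 5 bases before that of CLSPN and POLE2, and 59 bases before that of PCNA, whereas the windows of DBF4 and TIMELESS held none. CDC6, CLSPN and PCNA each also had 3 CCAAT boxes, and POLE2 had a YY1 word 8 bases after its first base.

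Over the group, 14 of the 44 promoters (31.8%) held an E2F word, against 1164 of all 35116 windows in the table (3.31%) and 910 of the 22198 windows of protein-coding genes (4.10%). The 14 genes were LIG1, PCNA, RFC3, POLA1, POLA2, POLE, POLE2, ORC3, CDC6, CDT1, UHRF1, DNMT1, CLSPN and GINS3. For UHRF1, DNMT1 and GINS3 the RefSeq start lies 6421, 36333 and 97391 bases downstream of the start of the gene in the count tables, so their match belongs to 1 of several starts. The RefSeq start of CDT1, LIG1, CDC6, POLE2 and POLA2 also lies downstream, by 576, 259, 246, 208 and 200 bases. All positions given here are counted from the RefSeq start. YY1 words were found in POLE2, PRIM2 and RRM1, 3 of 44 (6.82%), against 6.58% of all windows and 7.37% of protein-coding ones. CCAAT boxes were found in 21 of 44 (47.7%), against 34.6% of all windows. Among the 33 matched genes that were lower in HK2 Dsh cells, 14 held an E2F word, and among the other 11 none did. In ACHN Dsh cells the same split was 10 of 31 lower genes and 4 of the other 13. These are counts of letters in a window and were given no test.

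The central comparison was the double knockdown against the control hairpin. In ACHN Dsh cells 33 genes were lower and 5 higher at an adjusted p-value under 0.05 in edgeR's quasi-likelihood test, and all 48 passed the filter on low counts. Over all genes tested, 32% were lower and 30.7% higher. The median log2 fold change of the 48 was -0.46, beside -0.01 for all genes. In HK2 Dsh cells 35 genes were lower and 3 higher, where 24.3% of all genes were lower and 25.5% higher, and the median was -0.36 beside 0.00. The lowest of the 4 group means was that of Dsh for 37 of the 48 genes in ACHN and 39 in HK2, against 33.3% and 30.1% of all genes. The 5 genes that were higher in ACHN were PRIM2, ORC5, RPA1, PCNA and LIG1, and the 3 in HK2 were DBF4, RPA2 and POLD3. None of these 3 HK2 calls was made when all 12 HK2 libraries shared 1 fit, whose spread also came from shKDM5C replicate 1. In the heat map of the 48 genes the lower values appear as the blue columns of the Dsh libraries.

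**Figure D1:**
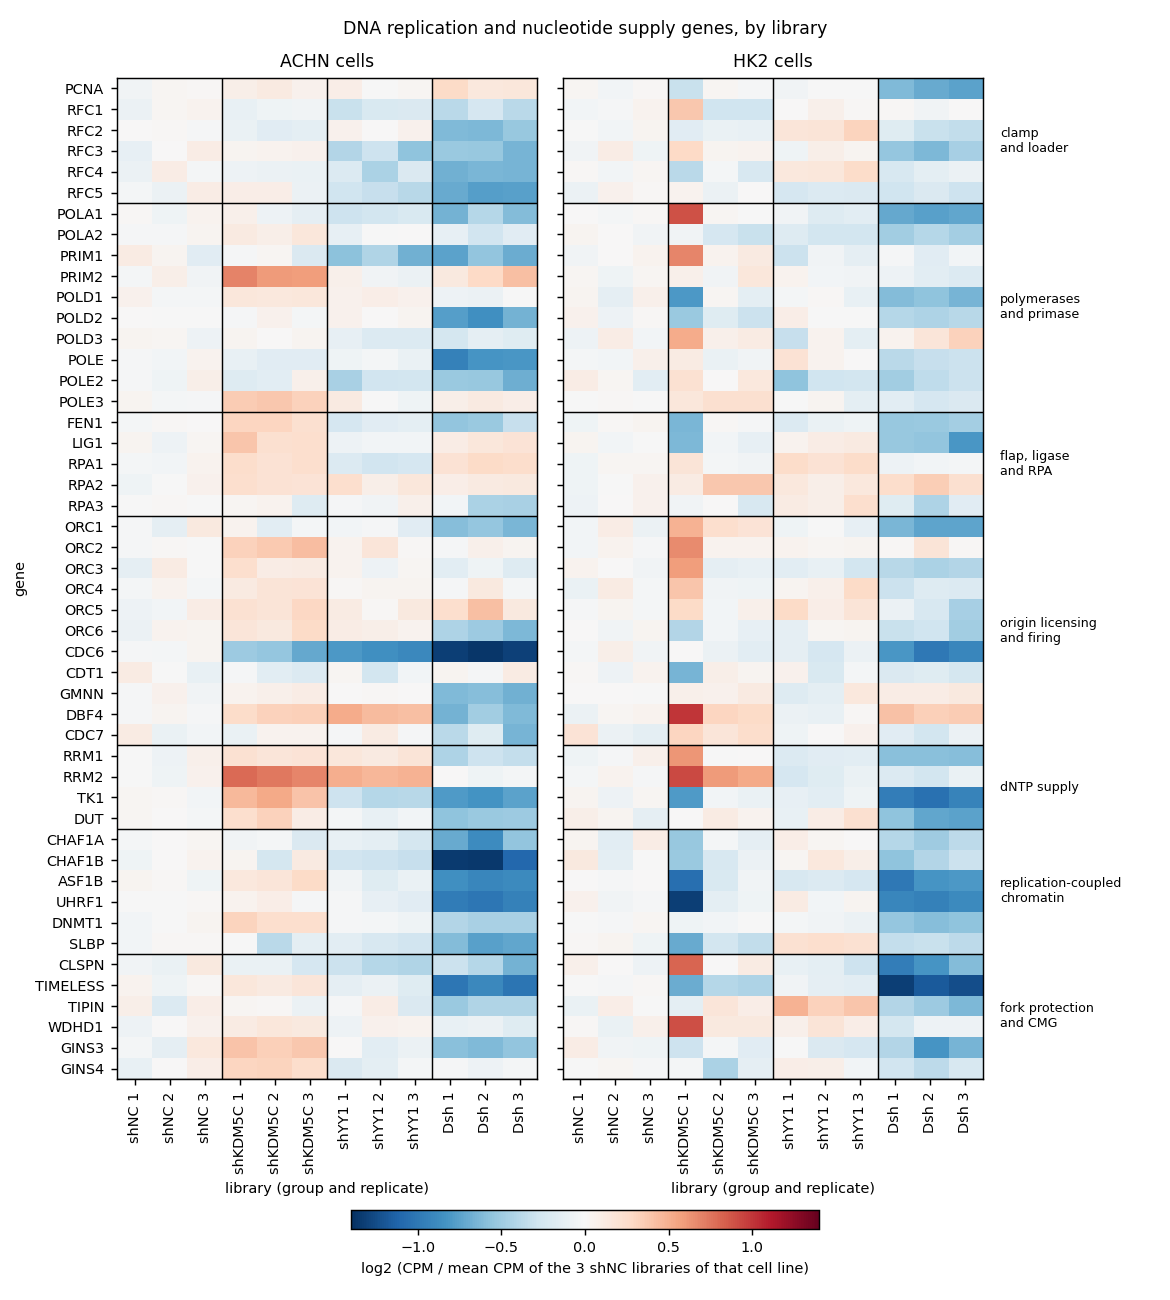
Level of each of the 48 genes (rows, by role) in each library (columns), as log2 of its CPM over the mean CPM of the 3 shNC libraries of that cell line, with red above and blue below the control. Dsh columns were mostly blue in both lines (33 and 35 genes called lower), ACHN shKDM5C columns were mostly pale red (22 genes called higher), and HK2 shKDM5C replicate 1 differed from its 2 replicates.

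The single knockdowns did not lower the genes to the same extent. In ACHN shKDM5C cells 22 of the 48 genes were higher and 4 lower, where 28.9% of all genes were higher and 27.7% lower, with a median of 0.10. In ACHN shYY1 cells 20 were lower and 3 higher, where 24.5% of all genes were lower and 24.2% higher, with a median of -0.08. HK2 shYY1 cells had 7 genes lower and 5 higher, no larger shares than the 14.7% and 14.3% of all genes. None of these 12 calls was made when all 12 HK2 libraries shared 1 fit. The spread in that fit also came from shKDM5C replicate 1, which is in neither group, and the same fit without this library is not given here. In HK2 shKDM5C cells edgeR called 0 genes lower and 0 higher, where 0.656% and 0.668% of all genes were called. At an unadjusted p under 0.05 there were 3 lower and 3 higher, and DESeq2 called 1 in each direction. Without replicate 1, 6 genes were lower and 5 higher, beside 10.9% and 11.5% of all genes.

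The Dsh cells were also set against each single knockdown, which asks what the other depletion added. The depletions were not matched in these comparisons, since YY1 was higher in Dsh than in shYY1 cells of both lines (log2 fold change 0.35 in ACHN, adjusted p = 5.36e-05, and 0.22 in HK2, adjusted p = 0.00645, edgeR), and KDM5C was itself higher in shYY1 than in shNC cells (0.34 and 0.35). Against ACHN shKDM5C cells, 41 of 48 genes were lower and 2 higher, where 30.9% of all genes were lower and 31.6% higher. Against ACHN shYY1 cells, the cells from which the Dsh cells were derived, 28 were lower and 4 higher, where the shares of all genes were 32.7% and 32%. Against HK2 shYY1 cells 35 were lower and 2 higher, where 22.9% of all genes were lower and 24.8% higher. Against HK2 shKDM5C cells 11 were lower and 0 higher with all 3 shKDM5C libraries (5.59% and 6.26% of all genes), 20 lower and 0 higher at an unadjusted p under 0.05, and DESeq2 gave 13 lower and 0 higher. Without shKDM5C replicate 1 the count was 31 lower and 1 higher (21% and 22.2% of all genes).

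Genes of origin licensing and firing included CDC6, the gene with the largest fall in ACHN Dsh cells. CDC6, which loads the helicase with CDT1, was at 94.3, 93.0 and 97.9 CPM in the ACHN shNC libraries and at 38.0, 36.9 and 38.4 CPM in the Dsh libraries (log2 fold change -1.33, SE 0.053, adjusted p = 1.34e-13, edgeR). The single knockdowns lay in between, at 66.8, 65.2 and 58.0 CPM in shKDM5C and 54.6, 52.5 and 50.8 CPM in shYY1 libraries, and none of the 4 ACHN groups overlapped. It was lower in each single knockdown too, with log2 fold changes of -0.59 (shKDM5C, adjusted p = 8.40e-11, edgeR) and -0.87 (shYY1, adjusted p = 3.28e-18, edgeR), the lowest value among the 48 genes in both. In HK2 cells CDC6 was at 94.8, 102 and 93.6 CPM in shNC and 55.0, 48.6 and 51.3 CPM in Dsh libraries (log2 fold change -0.90, SE 0.062, adjusted p = 1.50e-13, edgeR). The single knockdowns of HK2 had 97.5, 91.7 and 87.3 CPM in shKDM5C libraries, which overlapped the control, and 88.9, 82.6 and 91.7 CPM in shYY1 libraries, which lay just below it without passing the test (log2 fold change -0.14, adjusted p = 0.0814, edgeR).

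ORC1, the subunit of the origin recognition complex whose protein level cycles, fell in Dsh cells of both lines. It went from 22.6, 21.0 and 25.1 to 15.1, 15.8 and 14.6 CPM in ACHN (log2 fold change -0.60, SE 0.089, adjusted p = 1.07e-05, edgeR) and from 48.2, 53.3 and 46.8 to 31.8, 29.5 and 29.5 CPM in HK2 (log2 fold change -0.70, SE 0.076, adjusted p = 4.19e-09, edgeR), with no overlap in either line. Of the other ORC subunits in ACHN Dsh cells, ORC6 fell (-0.53), ORC5 was higher (30.4, 34.4 and 28.3 CPM against 24.5, 25.0 and 27.7 CPM in shNC, 0.26, lost without ACHN shNC replicate 1), and ORC2, ORC3 and ORC4 had values from -0.13 to 0.03. ORC5 was at 29.8, 29.2 and 31.5 CPM in ACHN shKDM5C libraries, also above every shNC library. In HK2 Dsh cells ORC3 (-0.41), ORC6 (-0.35) and ORC4 (-0.22, lost under 3 of 13 alternatives) fell, and ORC2 (0.08) and ORC5 (-0.24) were not called. CDT1, the partner of CDC6, was at 50.3, 46.3 and 43.2 CPM in ACHN shNC and 48.03, 46.0 and 50.4 CPM in Dsh libraries, which overlapped (log2 fold change 0.05, adjusted p = 0.572, edgeR). In HK2 it fell slightly, from 71.0, 66.9 and 73.0 to 61.0, 62.7 and 59.0 CPM (log2 fold change -0.20, adjusted p = 0.00705, edgeR).

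The regulators GMNN and DBF4 differed between the lines. GMNN, the inhibitor of CDT1, was at 35.8, 37.8 and 34.9 CPM in ACHN shNC, 37.5, 37.9 and 38.9 CPM in shKDM5C, 36.4, 36.6 and 36.2 CPM in shYY1 and 23.6, 23.9 and 22.8 CPM in Dsh libraries (log2 fold change -0.63, SE 0.070, adjusted p = 2.80e-07, edgeR). Only the Dsh libraries left the control range downward. In HK2 it was at 52.3, 52.3 and 52.2 CPM in shNC and 56.1, 56.0 and 57.7 CPM in Dsh libraries, above every control library but not called (log2 fold change 0.12, adjusted p = 0.108, edgeR). DBF4, the activator of CDC7, was higher in both ACHN single knockdowns, at 60.7, 63.3 and 64.0 CPM in shKDM5C and 73.0, 69.0 and 68.1 CPM in shYY1 against 50.1, 51.9 and 50.1 CPM in shNC libraries, and lower in ACHN Dsh cells at 32.1, 36.2 and 32.9 CPM (log2 fold change -0.59, SE 0.065, adjusted p = 2.17e-07, edgeR). DBF4 was higher in HK2 Dsh cells, at 56.3, 53.4 and 54.2 CPM against 40.0, 43.1 and 43.9 CPM in shNC libraries (log2 fold change 0.37, SE 0.068, adjusted p = 2.80e-05, edgeR). Its kinase CDC7 was lower in ACHN Dsh cells (-0.40, adjusted p = 0.00433, edgeR) and had -0.16 in HK2 Dsh cells (adjusted p = 0.146, edgeR). In all, 6 of these 11 genes were lower and 1 higher in Dsh cells of each line, where 32% (ACHN) and 24.3% (HK2) of all genes were lower.

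The genes of nucleotide supply were higher in ACHN shKDM5C cells (4 of 4) and lower in ACHN Dsh cells (3 of 4). Of all genes, 28.9% were higher in the first and 32% lower in the second. RRM2, the small subunit of ribonucleotide reductase that limits the making of dNTPs, was at 135, 129 and 141 CPM in ACHN shNC libraries. It was at 234, 225 and 217 CPM in shKDM5C (log2 fold change 0.73, SE 0.038, adjusted p = 1.18e-14, edgeR), at 191, 186 and 189 CPM in shYY1 (log2 fold change 0.46, SE 0.034, adjusted p = 1.70e-13, edgeR), and back at 135, 129 and 133 CPM in Dsh libraries (log2 fold change -0.03, adjusted p = 0.602, edgeR). The rise in the single knockdowns was the largest of the 48 genes in both. RRM1, the large subunit, was at 111, 106 and 117 CPM in shNC, 129, 125 and 127 CPM in shKDM5C, 124, 122 and 126 CPM in shYY1 and 82.3, 90.6 and 88.5 CPM in Dsh libraries, higher in both single knockdowns (0.18 and 0.13) and lower in Dsh (log2 fold change -0.35, SE 0.053, adjusted p = 1.20e-05, edgeR). TK1 rose in shKDM5C cells to 221, 233 and 212 CPM from 164, 163 and 157 CPM in shNC (log2 fold change 0.45, SE 0.036, adjusted p = 6.60e-11, edgeR), and fell to 132, 122 and 123 CPM in shYY1 (log2 fold change -0.38, SE 0.036, adjusted p = 6.12e-11, edgeR) and 93.2, 90.3 and 96.0 CPM in Dsh cells (log2 fold change -0.79, SE 0.046, adjusted p = 3.35e-11, edgeR). DUT, which clears dUTP, was higher in shKDM5C (0.22) and lower in Dsh cells (-0.53).

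In HK2 cells all 4 nucleotide supply genes were lower in Dsh cells, where 24.3% of all genes were. TK1 went from 299, 277 and 295 CPM in shNC to 149, 141 and 152 CPM in Dsh libraries (log2 fold change -0.97, SE 0.046, adjusted p = 2.15e-17, edgeR), or 50.7% of the control mean. RRM1 went from 146, 151 and 160.2 to 102, 102 and 101 CPM (log2 fold change -0.58, SE 0.050, adjusted p = 2.83e-11, edgeR), and DUT had a log2 fold change of -0.67. RRM2 fell little, from 201, 212 and 202 to 179.8, 171 and 192 CPM, without overlap (log2 fold change -0.17, SE 0.048, adjusted p = 0.00338, edgeR). In shKDM5C libraries RRM2 was at 388, 309 and 296 CPM, above all controls in each library. That difference was 0.70 (adjusted p = 0.0705, edgeR) with all 3 libraries and 0.56 (adjusted p = 4.29e-10, edgeR) without replicate 1, and it was the highest of the 48 genes in both fits. In HK2 shYY1 cells RRM1 and RRM2 were slightly lower (-0.17 and -0.17).

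**Figure D2:**
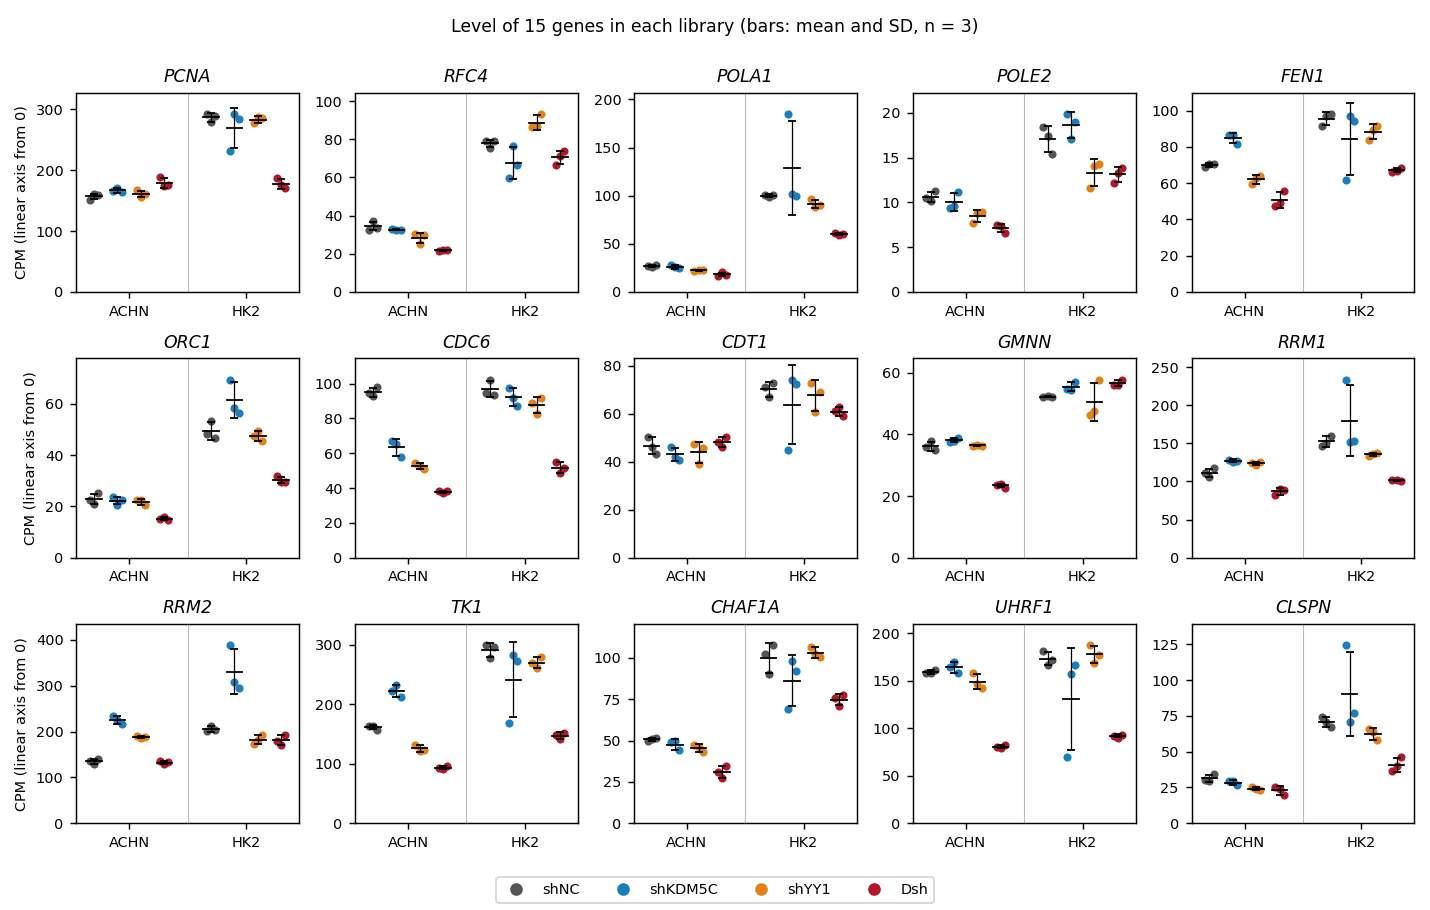
CPM (linear axis from 0) of 15 genes in each library, with ACHN groups on the left and HK2 groups on the right of each panel, points for libraries and bars for the mean and SD (n = 3). CDC6, UHRF1, TK1 and ORC1 in Dsh libraries lay below all shNC libraries in both lines, PCNA lay above them in ACHN and below them in HK2, and CDT1 overlapped them in ACHN.

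The clamp was higher and its loader lower in ACHN Dsh cells. PCNA was at 152, 160.3 and 159 CPM in ACHN shNC and 189, 174 and 176 CPM in Dsh libraries, a small rise without overlap (log2 fold change 0.19, SE 0.047, adjusted p = 0.0016, edgeR). In HK2 it fell from 292, 279 and 289.7 to 187, 176 and 171 CPM (log2 fold change -0.68, SE 0.045, adjusted p = 8.54e-14, edgeR). The HK2 single knockdowns did not differ from the control at the threshold, with 231, 292 and 284 CPM in shKDM5C and 277, 287 and 286 CPM in shYY1 libraries. All 5 subunits of the loader RFC were lower in ACHN Dsh cells, from -0.33 for RFC1 to -0.75 for RFC5, where 32% of all genes were. RFC4 was at 32.7, 37.0 and 33.8 CPM in shNC, 32.9, 32.5 and 32.3 CPM in shKDM5C, 30.1, 25.3 and 29.9 CPM in shYY1 and 21.6, 22.1 and 22.0 CPM in Dsh libraries of ACHN (log2 fold change -0.66, SE 0.074, adjusted p = 3.26e-07, edgeR). RFC1, RFC3, RFC4 and RFC5 were already lower in ACHN shYY1 cells (-0.26, -0.43, -0.30 and -0.35), and RFC2 was not (0.02). RFC3, the lowest of them there, had 43.9, 47.8 and 51.2 CPM in shNC and 35.8, 39.0 and 32.3 CPM in shYY1 libraries, which did not overlap. RFC2 was the loader subunit that was lower in ACHN shKDM5C cells, at 60.2, 57.5 and 58.3 CPM against 64.4, 64.9 and 63.4 CPM (-0.14, adjusted p = 0.0111, edgeR, lost under 2 of 13 alternatives). In HK2 shYY1 cells RFC2 and RFC4 were among the 5 higher genes, RFC2 at 72.6, 72.9 and 80.3 CPM against 64.3, 63.0 and 66.2 CPM (0.22, adjusted p = 0.00871, edgeR) and RFC4 with 0.19. In HK2 Dsh cells RFC3 (-0.54), RFC2 (-0.27) and RFC5 (-0.25) fell, while RFC4 (-0.14, adjusted p = 0.0533, edgeR) and RFC1 (0.00) did not pass the test.

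Of the 10 polymerase and primase genes, 7 were lower and 1 higher in Dsh cells of each line, but they were not the same genes throughout. Over all genes, 32% were lower and 30.7% higher in ACHN, and 24.3% and 25.5% in HK2. POLA1, the catalytic subunit of polymerase alpha, went from 27.0, 25.7 and 27.7 to 16.9, 20.3 and 17.6 CPM in ACHN (log2 fold change -0.56, SE 0.085, adjusted p = 1.37e-05, edgeR) and from 100.5, 98.2 and 101 to 60.8, 59.0 and 60.2 CPM in HK2 (log2 fold change -0.73, SE 0.055, adjusted p = 1.71e-12, edgeR). POLE, the catalytic subunit of polymerase epsilon, fell more in ACHN (-0.86) than in HK2 (-0.32), where the difference itself was -0.52 (adjusted p = 2.27e-07, edgeR). In ACHN it was at 154, 152 and 161 CPM in shNC, slightly lower at 144, 139 and 139 CPM in shKDM5C (-0.15, adjusted p = 9.12e-04, edgeR) and clearly below both at 80.5, 87.4 and 88.7 CPM in Dsh libraries. POLE2 was at 10.49, 10.2 and 11.2 CPM in ACHN shNC, 7.74, 8.80 and 8.89 CPM in shYY1 and 7.44, 7.36 and 6.62 CPM in Dsh libraries (log2 fold change -0.58, SE 0.12, adjusted p = 2.36e-04, edgeR). In HK2 it was at 18.4, 17.4 and 15.4 CPM in shNC and about as low in shYY1 as in Dsh libraries, at 11.6, 14.0 and 14.3 CPM (-0.36) and 12.2, 13.3 and 13.8 CPM (-0.37). Its HK2 shYY1 value, the lowest there, lost its call under 5 of 13 alternatives. POLA2, the partner of POLA1, was the next lowest in HK2 shYY1 cells, at 41.6, 39.5 and 39.3 CPM against 48.4, 47.4 and 45.4 CPM in shNC (-0.23, adjusted p = 0.0163, edgeR), and it was lower still in HK2 Dsh cells (-0.45). POLD2, the second subunit of polymerase delta, fell in both lines (-0.76 and -0.40), whereas the catalytic POLD1 fell in HK2 (-0.60, adjusted p = 4.38e-10, edgeR) and was not called in ACHN (-0.06, adjusted p = 0.353, edgeR).

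The primase subunits moved in opposite directions in ACHN Dsh cells. PRIM1, the catalytic subunit, was at 24.3, 23.1 and 20.1 CPM in ACHN shNC, 15.1, 16.9 and 14.1 CPM in shYY1 and 13.4, 15.4 and 13.9 CPM in Dsh libraries, lower in both knockdowns (-0.57, adjusted p = 4.22e-07, and -0.67, adjusted p = 6.18e-06, edgeR). PRIM2 was at 13.6, 14.7 and 13.5 CPM in shNC and rose to 22.5, 21.1 and 21.0 CPM in ACHN shKDM5C libraries (log2 fold change 0.62, SE 0.079, adjusted p = 2.64e-07, edgeR). In ACHN Dsh cells it was at 15.3, 16.9 and 18.7 CPM, the highest of the 48 fold changes there (0.28, adjusted p = 0.0172, edgeR), a call lost under 4 of 13 alternatives. Neither passed the test in HK2 Dsh cells, with -0.06 for PRIM1 and -0.13 for PRIM2. POLD3, a polymerase delta subunit, was lower in ACHN Dsh (27.6, 30.1 and 29.2 CPM against 33.7, 33.5 and 31.2 CPM in shNC, -0.18) and higher in HK2 Dsh cells (40.3, 43.7 and 48.5 CPM against 36.9, 41.8 and 37.9 CPM, 0.19), both near the threshold and lost under 4 and 7 of 13 alternatives.

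FEN1, LIG1 and RPA finish and protect the lagging strand. FEN1, the flap nuclease, rose in ACHN shKDM5C libraries to 86.3, 86.4 and 81.8 CPM from 68.9, 70.7 and 70.5 CPM in shNC (log2 fold change 0.27, SE 0.042, adjusted p = 5.91e-06, edgeR), and fell to 59.5, 62.9 and 63.9 CPM in shYY1 (log2 fold change -0.19, SE 0.044, adjusted p = 4.39e-04, edgeR) and 47.7, 48.8 and 55.9 CPM in Dsh libraries (log2 fold change -0.46, SE 0.062, adjusted p = 3.04e-06, edgeR). The 4 groups did not overlap. FEN1 fell in HK2 Dsh cells too (log2 fold change -0.50, adjusted p = 7.68e-09, edgeR). LIG1, the ligase of Okazaki fragments, was slightly higher in ACHN Dsh cells (64.1, 66.5 and 68.1 CPM against 61.1, 56.8 and 60.7 CPM, 0.15, lost under 4 of 13 alternatives) and went from 104, 98.3 and 100.1 to 69.7, 68.4 and 57.1 CPM in HK2 (log2 fold change -0.62, SE 0.064, adjusted p = 1.42e-09, edgeR). In ACHN shKDM5C libraries LIG1 was at 78.0, 69.7 and 70.0 CPM. RPA1, the large subunit of the single-strand binding complex, went from 136, 135 and 144 CPM in ACHN shNC to 159, 167 and 164 CPM in Dsh libraries without overlap (0.23, adjusted p = 1.87e-04, edgeR). RPA1 was about as high in ACHN shKDM5C libraries, at 164, 159 and 163 CPM. In HK2 it had -0.04 in Dsh cells and was higher in shYY1 cells, at 235, 226 and 236 CPM against 189, 199.8 and 201 CPM (0.24, adjusted p = 6.09e-04, edgeR), whereas in ACHN shYY1 cells it was lower (-0.25). RPA3 was at 27.4, 20.7 and 20.5 CPM in ACHN Dsh against 28.0, 28.4 and 27.9 CPM in shNC libraries, with Dsh replicate 1 close to the control, and its calls in ACHN (-0.30) and HK2 (-0.24) were lost under 1 and 3 of 13 alternatives. RPA2 was higher in HK2 Dsh cells, at 62.7, 67.2 and 61.6 CPM against 50.6, 52.6 and 55.1 CPM (0.28, adjusted p = 5.11e-04, edgeR).

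All 6 genes of replication-coupled chromatin were lower in Dsh cells of both lines, with medians of -0.80 in ACHN and -0.49 in HK2. Of all genes, 32% were lower in ACHN and 24.3% in HK2 Dsh cells. UHRF1, which brings DNMT1 to newly copied DNA, was at 159, 158 and 161 CPM in ACHN shNC and 80.7, 78.9 and 82.4 CPM in Dsh libraries (log2 fold change -0.98, SE 0.045, adjusted p = 1.15e-12, edgeR), or 50.6% of the control mean. In HK2 it went from 181, 167 and 172 to 92.3, 90.3 and 93.4 CPM (log2 fold change -0.91, SE 0.050, adjusted p = 6.76e-16, edgeR). The single knockdowns of ACHN were near the control, at 165, 169.9 and 158 CPM in shKDM5C and 158, 147 and 143 CPM in shYY1 libraries (0.04 and -0.11, of which the second was called and lost under 3 of 13 alternatives). CHAF1A and CHAF1B are subunits of the chromatin assembly factor CAF-1. CHAF1A went from 49.9, 50.8 and 51.7 to 31.1, 27.5 and 34.7 CPM in ACHN (log2 fold change -0.70, SE 0.074, adjusted p = 1.26e-07, edgeR) and from 102, 90.1 and 108 to 75.7, 71.0 and 77.8 CPM in HK2 (log2 fold change -0.41, SE 0.061, adjusted p = 1.33e-06, edgeR). CHAF1B fell far more in ACHN, from 29.5, 30.7 and 31.7 to 12.1, 12.1 and 14.3 CPM (log2 fold change -1.25, SE 0.087, adjusted p = 4.30e-10, edgeR), than in HK2, from 38.9, 32.1 and 35.2 to 23.98, 26.6 and 28.8 CPM (log2 fold change -0.41, SE 0.089, adjusted p = 2.57e-04, edgeR). ASF1B, a histone chaperone, fell in both lines (-0.89 and -0.86), and so did the maintenance methyltransferase DNMT1 (-0.44 and -0.56), with differences between the lines of -0.01 (SE 0.082) and 0.14 (SE 0.058) that were not called. SLBP, which binds the ends of histone mRNAs, fell in both lines (-0.70 and -0.33). It was at 90.5, 93.6 and 93.9 CPM in ACHN shNC, 92.5, 71.4 and 84.3 CPM in shKDM5C (-0.17, adjusted p = 0.0158, edgeR, overlapping the control and lost under 4 of 13 alternatives) and 60.7, 54.8 and 56.1 CPM in Dsh libraries. In HK2 shYY1 cells SLBP was higher (0.22) and ASF1B lower, at 97.9, 99.7 and 97.1 CPM against 114, 113 and 115 CPM (-0.22, adjusted p = 0.00303, edgeR).

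The fork protection genes were led by TIMELESS, the lowest of the 48 genes in HK2 Dsh cells. It was at 168, 168 and 172 CPM in HK2 shNC and 67.7, 75.2 and 71.6 CPM in Dsh libraries (log2 fold change -1.24, SE 0.052, adjusted p = 1.27e-18, edgeR), or 42.2% of the control mean. In ACHN it went from 138, 128 and 135 to 66.3, 71.6 and 65.7 CPM (log2 fold change -0.98, SE 0.052, adjusted p = 8.21e-12, edgeR). HK2 shKDM5C libraries were also below the control, at 104, 128 and 125 CPM, which passed the test without replicate 1 (-0.42, adjusted p = 2.71e-07, edgeR) and under 2 of the other 12 alternatives, DESeq2 and all 12 libraries in 1 fit, but not with edgeR on the 6 libraries (-0.50, adjusted p = 0.117). TIPIN, its partner, fell in both Dsh groups (-0.46 and -0.51), but in HK2 shYY1 cells it rose to 14.4, 12.9 and 13.4 CPM from 9.68, 10.98 and 10.2 CPM (0.40, adjusted p = 0.0166, edgeR), the highest value there. CLSPN went from 30.2, 29.4 and 34.3 to 25.4, 23.7 and 19.8 CPM in ACHN Dsh (log2 fold change -0.46, SE 0.092, adjusted p = 2.73e-04, edgeR), and the shYY1 libraries lay within the range of Dsh at 25.4, 23.8 and 23.4 CPM. In HK2 it fell from 74.0, 70.9 and 67.0 to 36.2, 39.9 and 46.3 CPM (log2 fold change -0.78, SE 0.074, adjusted p = 2.23e-10, edgeR). GINS3, a subunit of the replicative helicase complex, fell in both (-0.58 and -0.61), GINS4 was called lower in HK2 (-0.28) and not in ACHN (-0.04), and WDHD1, which links polymerase alpha to the helicase, was called in neither (-0.12 and -0.12).

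Whether the double knockdown was more than the sum of the single ones on the log2 scale was asked with an interaction term over the 12 libraries of a line. The targeted genes had interactions of their own in ACHN, 0.28 for YY1 (adjusted p = 0.00125, edgeR) and -0.42 for KDM5C (adjusted p = 6.48e-06, edgeR), so the depletions in ACHN Dsh cells were not the sum of the single ones. In HK2 the interaction of KDM5C was -0.10 with all libraries and -0.32 without shKDM5C replicate 1 (adjusted p = 0.843 and 0.00244, edgeR). In ACHN cells 33 of the 48 genes had an interaction below 0 that passed the test and 2 had one above 0, where 28.8% of all genes were below and 26.8% above, and its median was -0.32 beside 0.01 over all genes. The largest were DBF4 with -1.36 (SE 0.076, adjusted p = 7.88e-14, edgeR) and RRM2 with -1.25 (SE 0.058, adjusted p = 1.97e-15, edgeR), both among the genes that were higher in each single knockdown. TIMELESS (-1.01), ASF1B (-0.97), CHAF1B (-0.94) and UHRF1 (-0.93) followed, genes whose single knockdown values lay between -0.31 (CHAF1B in shYY1) and 0.19 (ASF1B in shKDM5C). CDC6 had no interaction that passed the test (0.11, adjusted p = 0.241, edgeR). Its single effects of -0.59 and -0.87 stand beside a Dsh effect of -1.33. PRIM1 (-0.05), CLSPN (0.06) and RFC3 (-0.20, adjusted p = 0.0759, edgeR) were likewise not called, with shYY1 values close to those of Dsh. The 2 genes above 0 were RPA1 (0.24) and CDT1 (0.25, lost under 7 of 18 alternatives).

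In HK2 cells the interaction was below 0 for 11 genes and above 0 for 0 with all libraries, where 4.4% of all genes were below and 5.21% above. At an unadjusted p under 0.05 it was 22 and 0, and DESeq2 gave 15 and 0. Without shKDM5C replicate 1 it was below 0 for 29 genes and above 0 for 1, where 13.7% and 15% of all genes were. POLA1 (-0.97 with and -0.61 without that library), CLSPN (-0.97 and -0.67), ORC1 (-0.96 and -0.85) and TIPIN (-0.96 and -1.03) were the lowest with all libraries, and each was called in both fits, although POLA1 and CLSPN each lost the call under 9 of 18 alternatives. RFC1 changed sign, from -0.01 with to 0.25 without the library, where it was the gene above 0 (adjusted p = 0.0101, edgeR). PCNA was called in both fits (-0.58 and -0.66) but lost its call under 5 of 18 alternatives.

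**Figure D3:**
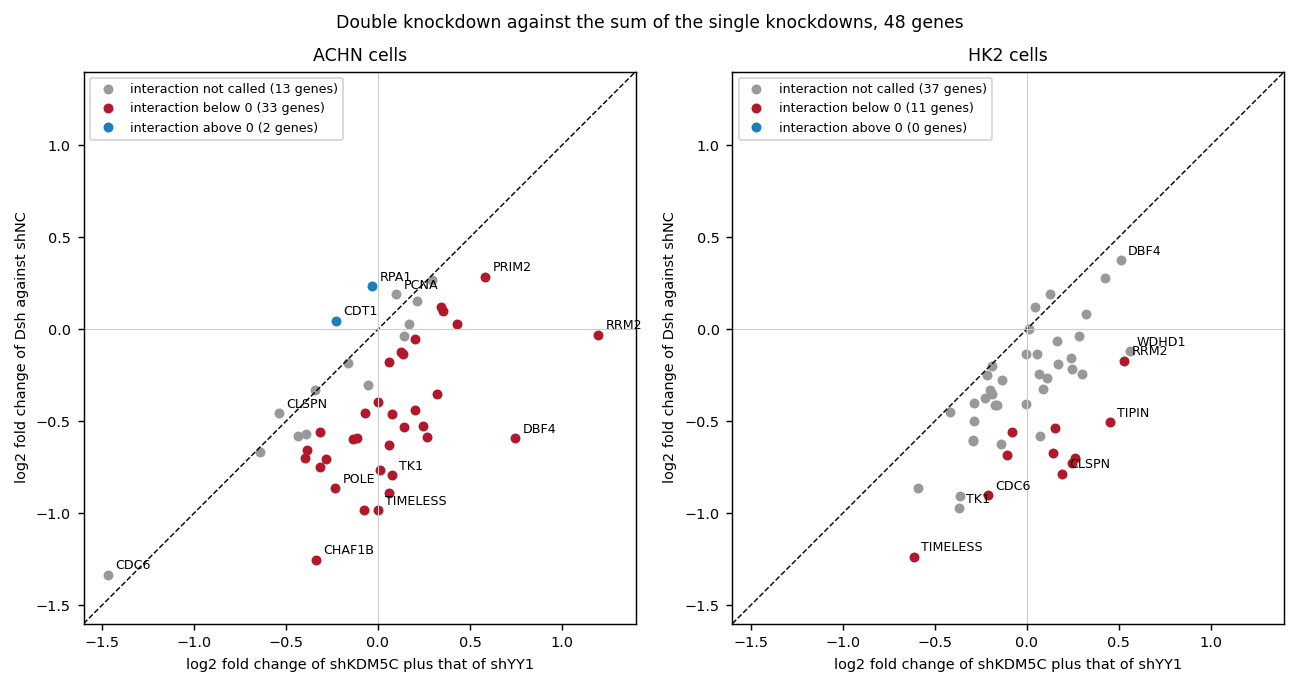
Log2 fold change of Dsh against shNC (vertical) over the sum of the log2 fold changes of shKDM5C and shYY1 (horizontal), 1 point a gene, for ACHN (left) and HK2 (right), with the line of equality dashed and colours for the interaction call. In ACHN 33 genes lay below the line with a call, RRM2 and DBF4 farthest from it, while CDC6 lay near it. In HK2, where the sum includes shKDM5C replicate 1, 11 genes were called.

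The lines shared most of the genes that fell. Of the 33 lower genes of ACHN Dsh cells, 26 were also lower in HK2 Dsh cells, 78.8% of the ACHN and 74.3% of the HK2 genes. Over all genes the corresponding shares were 39.9% and 50.3%. No gene was higher in both. The difference of the Dsh effect between the lines was tested in a fit of the 12 shNC and Dsh libraries. It was called for 30 of the 48 genes, lower in ACHN for 14 and higher in ACHN for 16, where 22.7% and 23.3% of all genes were. PCNA had the largest difference on the one side, 0.89 (SE 0.066, adjusted p = 4.44e-12, edgeR), followed by LIG1 with 0.79 and POLD1 with 0.56. These encode the clamp, a ligase that binds it and a polymerase subunit. All 3 were lower in HK2 Dsh cells, while in ACHN PCNA and LIG1 were higher and POLD1 was not called. Genes close to them had called differences of the opposite sign. These were the polymerase delta genes POLD2 (-0.34) and POLD3 (-0.35) and the loader genes RFC1, RFC2, RFC4 and RFC5 (-0.31 to -0.50). On the other side stood DBF4 with -0.95 (SE 0.092, adjusted p = 1.17e-09, edgeR), CHAF1B with -0.82 and GMNN with -0.73. DBF4 and POLD3 were called lower in ACHN and higher in HK2 Dsh cells. UHRF1 (-0.06, SE 0.065), ASF1B, GINS3 (0.04, SE 0.15) and RFC3 (-0.02, SE 0.10) differed by less than 1 SE between the lines.

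**Figure D4:**
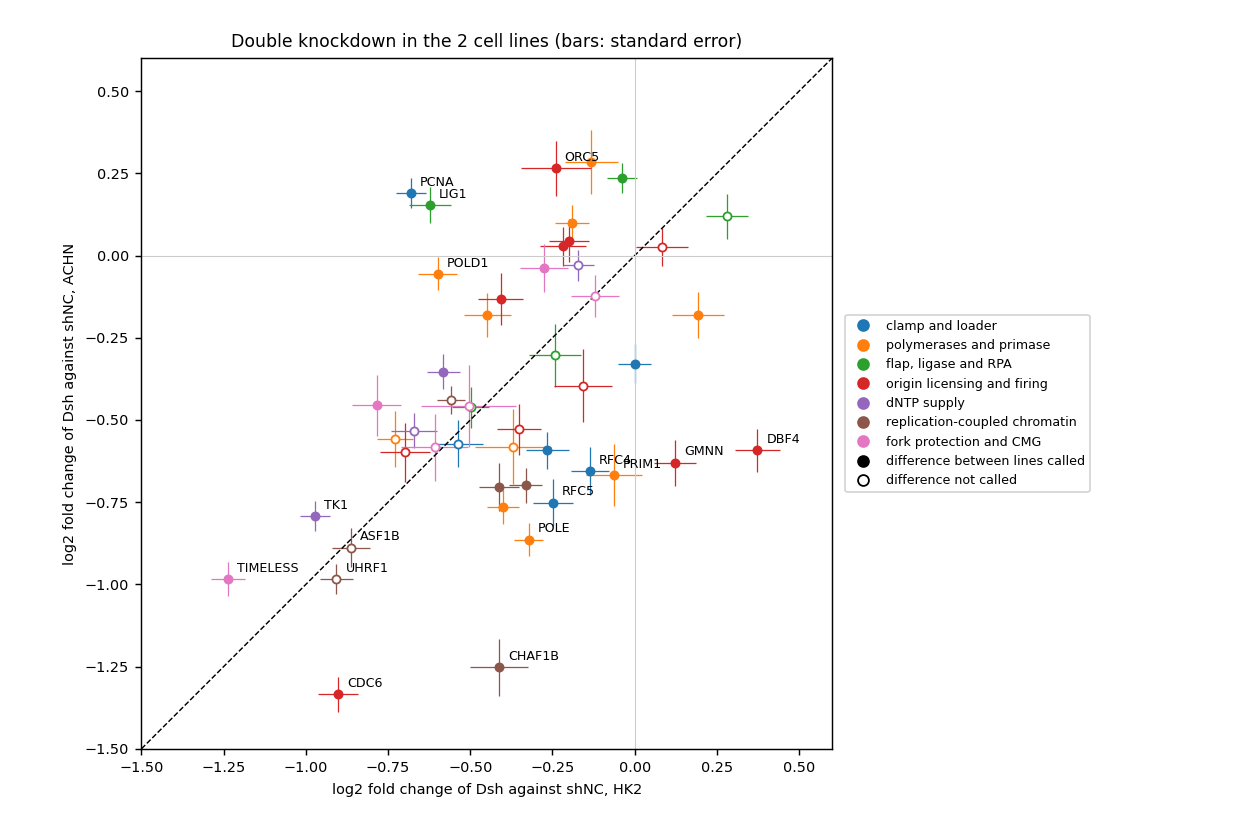
Log2 fold change of Dsh against shNC in ACHN (vertical) over that in HK2 (horizontal) for the 48 genes, with bars of 1 standard error, colours for roles, filled points where the difference between the lines was called (30 genes) and the line of equality dashed. PCNA, LIG1 and POLD1 lay far above the line, DBF4, GMNN and CHAF1B far below it, and TIMELESS, UHRF1 and TK1 were low in both lines.

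The library HK2 shKDM5C replicate 1 differed from its 2 replicates in many of the 48 genes and in both directions. POLA1 was at 185 CPM in it and at 102 and 99.4 CPM in the others. CLSPN (124, 70.9 and 76.7 CPM in replicates 1 to 3), WDHD1 (88.0, 51.7 and 51.9 CPM) and RRM1 (233, 151 and 154 CPM) were also high in it. UHRF1 (69.4, 157 and 166 CPM), ASF1B (54.8, 98.2 and 111 CPM) and TK1 (168, 283 and 273 CPM) were low. None of the genes just named was called when the remaining 2 libraries were set against the control. Of the 48 genes, 5 were then called higher and 6 lower, where 11.5% and 10.9% of all genes were. The higher ones were RRM2 (0.56), RPA2 (0.37), DBF4 (0.28), POLE3 (0.22) and ORC1 (0.21). The lower ones were TIMELESS (-0.42), SLBP (-0.30), RFC1 (-0.28), GINS4 (-0.27), POLA2 (-0.27) and POLD2 (-0.24).

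The rest of the pathway was read from 5 further lists. All 10 genes of the helicase list (MCM2 to MCM7, MCM10, CDC45, GINS1 and GINS2), the motor that opens the DNA at the fork, were lower in Dsh cells of both lines, with medians of -0.89 in ACHN and -0.78 in HK2. GINS2 had the largest falls, with -1.86 in ACHN (adjusted p = 3.38e-12, edgeR) and -1.70 in HK2 (adjusted p = 2.76e-14, edgeR), followed in ACHN by MCM6 (-1.63) and in HK2 by MCM4 (-1.02). In ACHN shYY1 cells 7 of the 10 were lower (median -0.23), where 24.5% of all genes were. In ACHN shKDM5C cells 4 were lower and 2 higher, where 27.7% and 28.9% of all genes were. In HK2 shYY1 cells 2 were higher, where 14.3% of all genes were. In HK2 shKDM5C cells 2 were lower once replicate 1 was left out, where 10.9% of all genes were. Apart from ACHN shYY1, these counts were 4 or fewer of 10 genes, and none of the counts was tested against the shares of all genes. Of 22 other genes of nucleotide supply, 10 were lower and 6 higher in ACHN Dsh cells, and 16 lower and 3 higher in HK2 Dsh cells, beside the same 32% and 30.7% of all genes in ACHN and 24.3% and 25.5% in HK2. TYMS, thymidylate synthase, was slightly higher in ACHN (0.16, adjusted p = 0.0137, edgeR) and lower in HK2 (-0.95, adjusted p = 1.53e-13, edgeR). TK2, the mitochondrial thymidine kinase, was higher in both lines (2.28 and 1.38), and so was RRM2B, the p53-inducible reductase subunit (1.49 and 0.30).

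Among 19 genes of G1/S control, 8 were lower and 8 higher in ACHN Dsh cells, and 8 lower and 5 higher in HK2 Dsh cells, beside 32% and 30.7% of all genes in ACHN and 24.3% and 25.5% in HK2. CDKN1A, the CDK inhibitor p21, rose by 2.25 in ACHN (adjusted p = 7.88e-17, edgeR) and 1.56 in HK2 (adjusted p = 1.89e-20, edgeR), and it was also higher in both ACHN single knockdowns (0.72 and 1.03). In the HK2 single knockdowns the highest value of the whole list was 0.512 in shKDM5C and 0.486 in shYY1 cells, below the 1.56 of CDKN1A in Dsh cells. Among the E2F genes the activator E2F2 fell in both Dsh groups (-1.44 and -1.82), E2F1 had -0.96 in ACHN and -0.28 in HK2, the repressor E2F8 fell (-1.16 and -1.25), and the repressor E2F7 rose (1.20 and 1.14). Of 10 tested genes of the replication checkpoint (ATRIP, the 11th, was too low to be tested), 5 were lower and 3 higher in ACHN Dsh and 3 lower and 2 higher in HK2 Dsh cells, shares near those of all genes for both directions in HK2 and for the higher genes in ACHN. CHEK1 (-0.54 and -0.28) and TOPBP1 (-0.39 and -0.33) fell in both.

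Genes of mitosis, a list of 21 genes expressed in G2 and M phase, were higher in the single knockdowns of ACHN. All 21 were higher in ACHN shKDM5C cells (median 0.59), where 28.9% of all genes were. In ACHN shYY1 cells 18 were higher and 1 lower (median 0.27), where 24.2% and 24.5% of all genes were. Of the 48 replication genes, 22 and 3 were higher in the same groups. In ACHN Dsh cells 14 of the 21 were lower and 1 higher (median -0.34), where 32% and 30.7% of all genes were. The interaction was called below 0 for all 21 (median -1.21), where it was for 28.8% of all genes. PLK1, the mitotic kinase, had 0.74 in shKDM5C, 0.39 in shYY1 and -0.24 in Dsh cells, and MKI67, the gene of the proliferation marker Ki-67, had 0.33, 0.31 and -0.66. In HK2 Dsh cells 12 mitosis genes were lower and 4 higher (median -0.24), with MKI67 at -0.54. Of all genes 24.3% were lower and 25.5% higher there, so the 4 higher genes were no larger a share. In HK2 shYY1 cells 7 of the 21 were lower and 2 higher (14.7% and 14.3% of all genes). In HK2 shKDM5C cells it was 0 and 0 (0.656% and 0.668% of all genes), or 0 and 3 without replicate 1 (10.9% and 11.5%). The HK2 interaction was called below 0 for 2 and above 0 for 0 (4.4% and 5.21% of all genes), or for 9 and 2 without that library (13.7% and 15%).

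**Figure D5:**
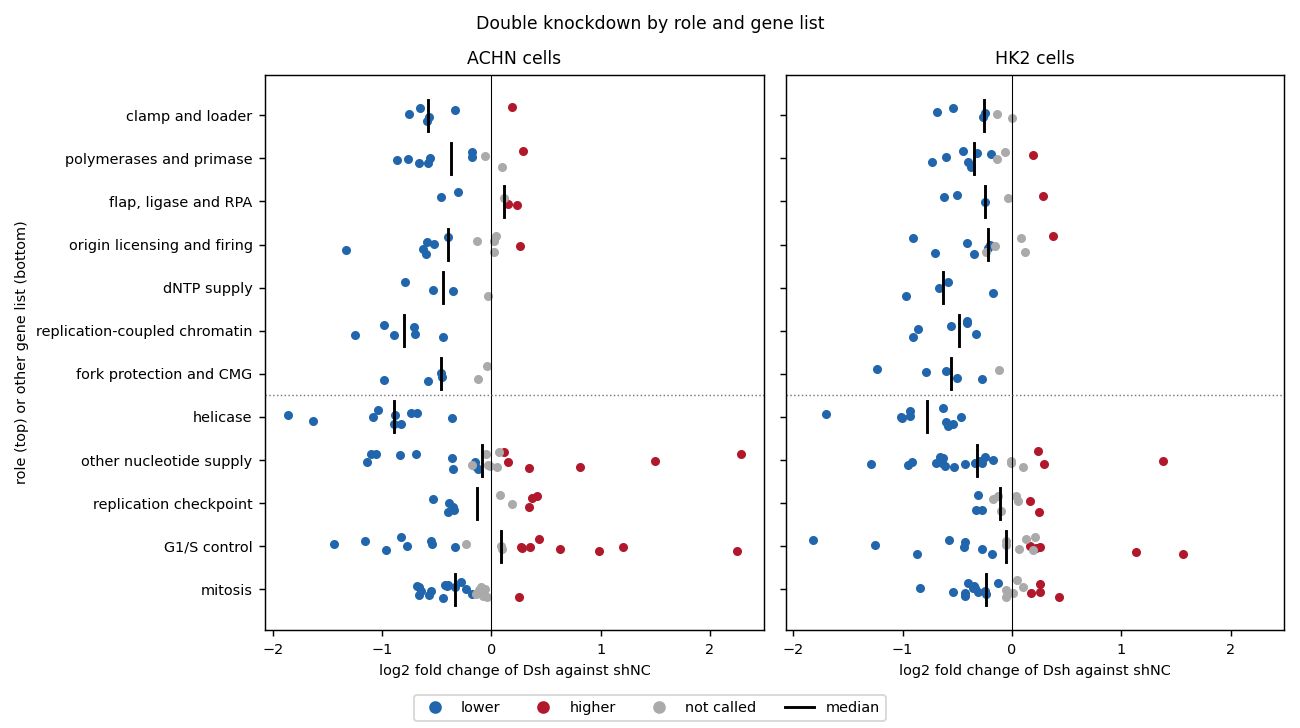
Log2 fold change of Dsh against shNC (horizontal) for each gene of the 7 roles and of the 5 further lists (rows), in ACHN (left) and HK2 (right), with blue for genes called lower, red for higher, grey for not called and a black bar for the median of the row. The chromatin and helicase rows were blue throughout (6 of 6 and 10 of 10 genes in each line), while the rows of other nucleotide supply and G1/S control held genes on both sides.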

How the data were processed

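RNA-seq was done on ACHN and HK2 cells with stable hairpins, in 8 groups of 3 libraries. Per the study's methods, total RNA was made into libraries with a NEBNext Ultra kit and sequenced as paired 150-base reads. Per the file headers, the authors deposited raw read counts per gene for each library, made with featureCounts 2.0.1 on Ensembl release 84 (GRCh38). The submitters' processing notes name HISAT2 2.0.5 and featureCounts 1.5.0-p3. The counting command set no strand option, so reads of overlapping and antisense genes cannot be told apart, and the deposited counts carry no normalization.

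Gene symbols were matched to the Ensembl identifiers in the deposited tables, and all 48 genes were found once. Each pair of groups was compared with edgeR 4.0.16 (quasi-likelihood F test, TMM scaling, filterByExpr, R 4.3.3, limma 3.58.1), two-sided, on the 6 libraries of the pair. Interactions used the 12 libraries of a line, and the difference between lines the 12 shNC and Dsh libraries. P-values were adjusted by Benjamini-Hochberg over all genes tested, between 15947 and 18087 a comparison, and called under 0.05 at any fold. SE is the log2 fold change over the square root of F. Alternatives were total counts or RLE factors as scaling, no filter or a minimum of 10 counts, DESeq2 1.42.0, a replicate block, all 12 libraries of a line in 1 fit, and leaving out each library. The scripts were tested on simulated counts. Library totals were 15926561 to 24272298 counts. Values per library are given for 15 fixed genes and for the 3 lowest and 3 highest called genes of each comparison with shNC. The members and lists were chosen with earlier results of these data known, so they are not independent evidence. An exact permutation of 3 against 3 libraries cannot go below 0.1, so no such test was made.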

Additional observations from a re-analysis of the deposited data

Results flagged for a closer look

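For 30 of the 48 genes the Dsh effect was not the same in both lines by edgeR's test of the difference. It was lower in ACHN for 14 and higher for 16, where 22.7% and 23.3% of all genes were. Values are log2 fold changes of Dsh against shNC in ACHN minus those in HK2. Among origin genes, those lower in ACHN were DBF4 (-0.95), GMNN (-0.73) and CDC6 (-0.41), and those higher in ACHN were ORC5 (0.53), ORC3 (0.29), ORC4 (0.26) and CDT1 (0.26), of which ORC4 lost the call under 7, ORC3 under 6 and CDT1 under 5 of 18 alternatives. CDC6 fell in both lines, and further in ACHN.

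Among clamp and loader genes PCNA was higher in ACHN (0.89), and RFC4 (-0.50), RFC5 (-0.48), RFC1 (-0.31) and RFC2 (-0.31) were lower. The polymerase and primase genes split, with PRIM1 (-0.58), POLE (-0.52), POLD3 (-0.35) and POLD2 (-0.34) lower in ACHN and POLD1 (0.56), PRIM2 (0.44), POLE3 (0.31) and POLA2 (0.29) higher. LIG1 (0.79) and RPA1 (0.29) were higher in ACHN.

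The chromatin genes that differed, CHAF1B (-0.82), SLBP (-0.35) and CHAF1A (-0.27), were all lower in ACHN. The fork and nucleotide genes that differed, CLSPN (0.35), TIMELESS (0.27), GINS4 (0.26), RRM1 (0.25) and TK1 (0.20), were all higher in ACHN, which for CLSPN, TIMELESS, RRM1 and TK1 means a smaller fall. GINS4 lost the call under 13, CLSPN under 8, TK1 under 5 and RRM1 under 1 of 18 alternatives, and POLA2 and CHAF1A under 3 each. KDM5C and YY1 were depleted less in ACHN than in HK2 Dsh cells, and the share of this in the differences cannot be told apart from the line.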

How the results depend on the processing

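Of 368 counts of called genes refitted under an alternative, 315 stayed within 1.5 times the value given, among them every count of lower genes in Dsh against shNC, which ranged from 31 to 32 in ACHN and from 34 to 36 in HK2 when a library was left out. Small counts moved. With total counts as scaling, ACHN shKDM5C had 8 lower, ACHN interaction 4 above 0, HK2 shKDM5C 1 higher and HK2 shYY1 12 lower. DESeq2 gave 2 lower in ACHN shKDM5C, 3 higher in ACHN Dsh, 0 higher in ACHN Dsh against shKDM5C, 1 above 0 in the ACHN interaction, and 1 lower and 1 higher in HK2 shKDM5C. For ACHN Dsh against shKDM5C the 2 higher genes became 1 with RLE factors, 0 without a filter and 1 with at least 10 counts. Without a filter HK2 shKDM5C had 1 higher, and the difference between lines was higher in ACHN for 10. With all 12 libraries in 1 fit, HK2 shKDM5C replicate 1 among them, HK2 shKDM5C had 2 lower and 1 higher, HK2 shYY1 0 and 0, HK2 Dsh 0 higher, Dsh against shKDM5C 22 lower and Dsh against shYY1 0 higher. The cause of these moves was not tested.

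The replicate numbers did not pair the libraries, since 36 correlations of same-numbered deviations ran from -0.37 to 0.15 with 6 above 0.1. With the replicate block, HK2 Dsh against shKDM5C had 3 lower and ACHN Dsh against shKDM5C 0 higher, and no other count moved by over 1.5 times.

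Leaving out 1 library gave 3 to 5 lower and 20 to 23 higher in ACHN shKDM5C, 18 to 19 and 3 to 4 in ACHN shYY1, 3 to 5 higher in ACHN Dsh (3 without shNC replicate 1 or Dsh replicate 3), 39 to 42 and 0 to 2 in ACHN Dsh against shKDM5C (1 higher without shKDM5C replicate 1, and 0 without its replicates 2 or 3 or Dsh replicates 1 or 3), and 28 to 34 and 1 to 2 in the ACHN interaction (1 without shNC replicate 1 or 2, shKDM5C replicate 2 or 3, shYY1 replicate 2 or Dsh replicate 3). In HK2 it gave 0 to 6 lower and 0 to 5 higher in shKDM5C, 3 to 7 and 3 to 5 in shYY1 (4 and 3 lower without shNC replicates 1 and 2, 3 higher without shYY1 replicate 3), 2 to 3 higher in Dsh, 33 to 35 and 1 to 3 in Dsh against shYY1 (1 without shYY1 replicate 1), and 8 to 29 and 0 to 1 in the interaction. HK2 Dsh against shKDM5C ranged from 0 to 31 lower and 0 to 1 higher, with 31 without shKDM5C replicate 1, 7 without its replicate 3, and 2, 1 and 0 without Dsh replicates 1, 2 and 3. The difference between lines was lower in ACHN for 13 to 14 and higher for 10 to 17 (10 without ACHN shNC replicate 1 or 2). Of single gene values, 6004 kept their direction and side of the threshold, 231 lost a call, 100 gained one, and RFC1 in the HK2 interaction reversed, to 0.25 without HK2 shKDM5C replicate 1 (from -0.12 to 0.25 over the libraries left out). Both the 3 libraries a group and the depth limit small differences, the depth most for genes near the lowest count of 116 in a library.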
